A study of Mus musculus with 10 samples.

Results

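*Noto*, *Foxj1*, *Shh*, *Chrd* and *Nog* are genes of the node and of the axial mesoderm that leaves it, and they were followed here through single mouse embryos at E7.5 by their symbols in the deposited table. All 5 were among its 20974 genes, and all 5 were among the 15603 genes whose mean reached 15 in one genotype or the other, which were the genes tested. The embryos were 5 *Rreb1*-/- and 5 *Rreb1*+/+ mice, numbered as replicates 2 to 6 of each genotype and labelled as whole embryos of strain CD1. The study's methods describe a mixed background of CD-1, 129 Sv and C57BL6/C2J animals and crosses between heterozygotes. The mutant alleles were CRISPR deletions in exon 6 of *Rreb1*, which encodes a zinc finger transcription factor downstream of Ras signaling. The study combined its data on a line with a larger and a line with a smaller deletion. All 5 mutant libraries are headed KO1 in the deposited data, a mark not explained in the sources used here. A mutant embryo therefore cannot be assigned to either deletion. Parietal endoderm was taken off each embryo for genotyping, and polyadenylated RNA of the remainder was sequenced with a stranded kit, 1 library per embryo.

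The node lies at the anterior end of the primitive streak. It gives rise to the notochord and bears motile cilia whose beating sets up left-right asymmetry. *Noto* encodes a homeobox factor of the node and notochord, and *Foxj1* the forkhead factor that switches on the genes of motile cilia. *Shh* encodes the ligand of the Hedgehog pathway that the notochord and floor plate secrete to pattern the ventral neural tube. *Chrd* (Chordin) and *Nog* (Noggin) encode secreted proteins that bind BMP ligands and keep them from their receptors. Axial mesoderm is a small share of an E7.5 embryo, and in RNA of whole embryos fewer cells of a type and less RNA per cell cannot be told apart.

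On GRCm38 (GENCODE M21), *Noto* lies on chromosome 6 from 85423886 to 85428877 on the plus strand, and *Chrd* on chromosome 16 from 20733127 to 20742384 on the plus strand. *Foxj1* (116330704 to 116335399) and *Nog* (89300638 to 89302332, a single exon) both lie on the minus strand of chromosome 11. *Shh* lies on the minus strand of chromosome 5 from 28456815 to 28467256. RefSeq (GRCm38.p6) promoter sequences were at hand for *Noto* and *Chrd*, and the 250 bases before each start site are shown because this pair of genes, both active in the same small group of cells, differed sharply in the base composition of that stretch. The *Noto* stretch is chr6:85423636-85423885 and the *Chrd* stretch chr16:20732877-20733126, both on the plus strand. Capitals mark GC boxes.
Noto: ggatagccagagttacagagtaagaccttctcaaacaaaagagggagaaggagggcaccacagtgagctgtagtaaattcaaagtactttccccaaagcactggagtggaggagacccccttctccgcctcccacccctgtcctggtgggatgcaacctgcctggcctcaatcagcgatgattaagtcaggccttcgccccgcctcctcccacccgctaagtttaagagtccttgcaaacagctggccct
Chrd: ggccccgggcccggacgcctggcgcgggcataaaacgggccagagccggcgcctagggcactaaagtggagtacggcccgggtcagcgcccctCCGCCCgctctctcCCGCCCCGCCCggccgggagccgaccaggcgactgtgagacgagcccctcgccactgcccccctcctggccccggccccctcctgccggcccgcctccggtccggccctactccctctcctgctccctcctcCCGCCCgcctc
The *Chrd* stretch was 78.0% G or C with 28 CpG dinucleotides, and the *Noto* stretch 54.8% with 5. Over 32851 mouse promoters of this length the medians were 52.4% and 6. Both strands were searched for a GC box (GGGCGG, in 32.7% of those promoters), a forkhead motif (TGTTTAC, 3.17%), a T-box motif (AGGTGTGA, 1.12%), a GLI core (GGGTGGTC, 0.703%), a TEAD motif (GGAATG, 12.6%), a CCAAT box (CCAAT, 33.8%) and a TATA box (TATAAA, 12.4%). *Chrd* had 4 GC boxes, all on the opposite strand, with their first bases at positions −157, −143, −138 and −11, the middle pair sharing 1 base. None of the other letters occurred in the *Chrd* stretch, and none of the 7 motifs in that of *Noto*.

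Values are normalized counts, that is, reads per gene that the authors divided by 1 DESeq size factor per embryo. The embryos had 31467767 to 35446574 (*Rreb1*-/-) and 33317560 to 35786876 (*Rreb1*+/+) reads in genes. The comparison of genotypes was made by limma on log2(normalized count + 1), and a gene was called at a Benjamini-Hochberg adjusted p under 0.05 over all genes tested. Fold changes are on that log2 scale, *Rreb1*-/- over *Rreb1*+/+, and understate the change of low genes. *Rreb1* itself averaged 5010 ± 718 in mutants, against 2644 ± 211 in *Rreb1*+/+ embryos (SD, n = 5 each), but counts over all exons do not check an allele that lacks part of 1 exon. The embryos also differed in ways the genotype does not account for. Along the first principal component, with 37.0% of the variance, replicates 5 and 6 of both genotypes stood apart from replicates 2 to 4, so results are also given within these sets, which were told apart by expression and not by a label. Y-linked genes were near 0 in all *Rreb1*+/+ embryos and in *Rreb1*-/- replicate 2 and high in the other 4 mutants.

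None of the 5 genes was called (0 by limma, edgeR or DESeq2, and 0 with an unadjusted p under 0.05 in limma), where 3.11% of all genes tested were called higher and 1.15% lower in *Rreb1*-/- embryos (486 and 179 genes, or 716 and 356 once the replicate number was blocked, a fit that called none of the 5 either). The genotypes overlapped in all 5 genes, and 6.70% of the genes tested did not overlap. *Noto*, *Foxj1*, *Chrd* and *Nog* were detected in every embryo at 47 reads or more. *Shh* was the exception, with 3 to 33 reads in *Rreb1*-/- replicates 2 to 4.

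**Figure D1:**
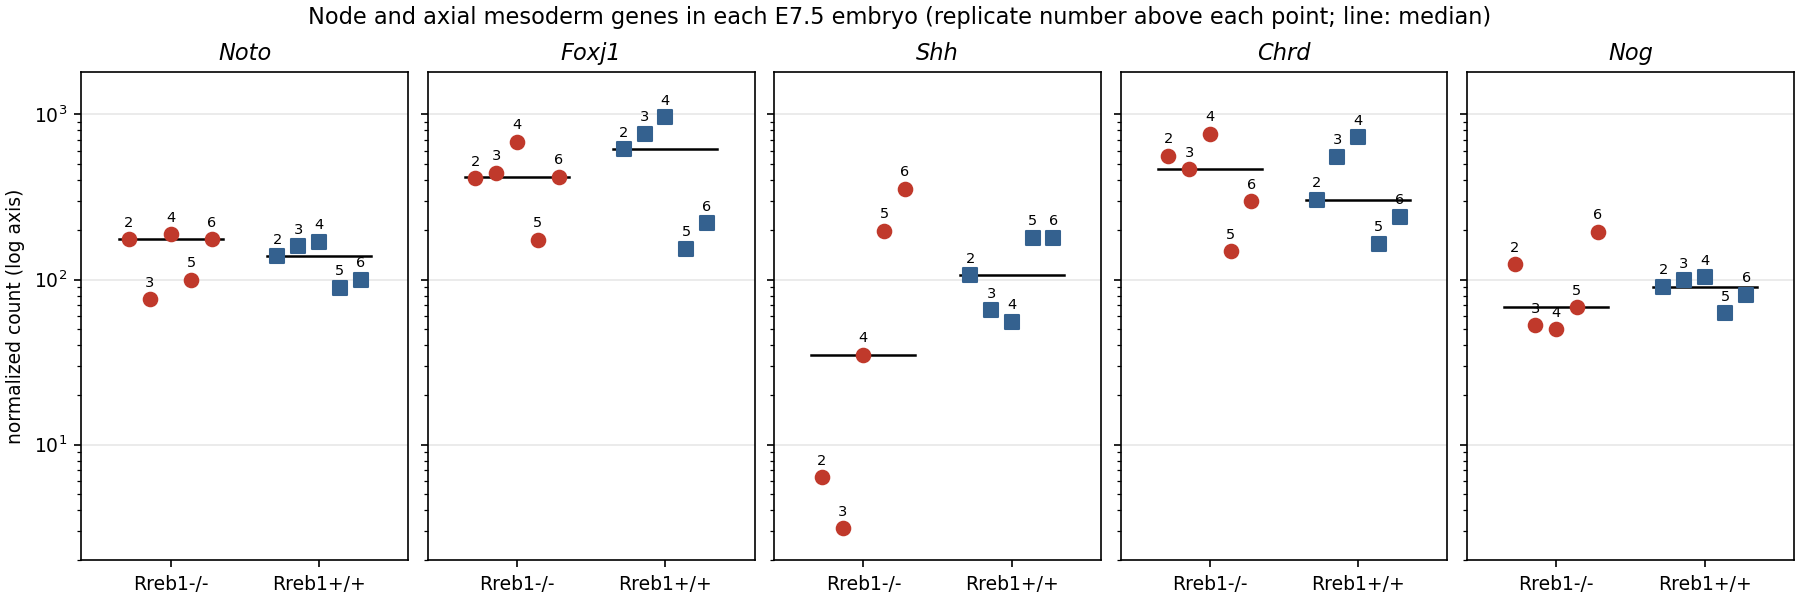
Normalized counts of the 5 genes on a log axis, each point an embryo with its replicate number above it, Rreb1-/- embryos as red circles left of Rreb1+/+ embryos as blue squares, and lines at the medians. The genotypes overlap in each panel, and *Shh* spans from 3.12 to 353.6 among Rreb1-/- embryos against 55.4 to 179.0 among Rreb1+/+ embryos.

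*Noto*, the homeobox gene of the node, had 175.9, 75.9, 188.0, 99.4 and 175.2 normalized counts in *Rreb1*-/- replicates 2 to 6, against 138.2, 158.6, 169.0, 89.3 and 99.9 in the *Rreb1*+/+ embryos of the same numbers. Mutant replicates 2, 4 and 6 were the 3 highest embryos and mutant replicate 3 the lowest, with the *Rreb1*+/+ embryos and mutant replicate 5 between them. The means were 142.9 ± 51.4 and 131.0 ± 35.2 (SD, n = 5 each), a log2 fold change of 0.08 with a 95% interval from −0.55 to 0.71 (limma, adjusted p = 0.915). Exact permutation of the embryos between genotypes, two-sided here and below for each gene, gave p = 0.746.

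*Foxj1*, the regulator of motile cilia, had 411.1, 442.7, 681.7, 173.8 and 420.4 normalized counts in *Rreb1*-/- replicates 2 to 6. In the *Rreb1*+/+ embryos it had 614.0, 766.0, 960.5, 153.7 and 219.5. Replicates 5 and 6 were the lowest *Rreb1*+/+ embryos by far, while among mutants only replicate 5 was low. The means of 425.9 ± 180 and 542.7 ± 348 differed by a log2 fold change of −0.15 (95% interval −1.29 to 0.99, limma, adjusted p = 0.913, exact permutation p = 0.833). The mean of replicates 2 to 4 was 1.72 times that of replicates 5 and 6 in *Rreb1*-/- and 4.18 times in *Rreb1*+/+ embryos. Within replicates 2 to 4 *Foxj1* stood at 411.1 to 681.7 in mutants and 614.0 to 960.5 in *Rreb1*+/+ embryos. That difference, −0.62 on the log2 scale, did not pass (limma, adjusted p = 0.216, unadjusted p = 0.0263). Within replicates 5 and 6 the log2 fold change was 0.56 (adjusted p = 0.647).

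*Shh* had the widest spread of the 5 genes. In *Rreb1*-/- replicates 2 to 6 it had 6.36, 3.12, 35.04, 197.0 and 353.6 normalized counts, from 6, 3, 33, 212 and 339 reads. In *Rreb1*+/+ replicates 2 to 6 it had 106.5, 65.3, 55.4, 178.6 and 179.0 normalized counts, from 111, 65, 58, 186 and 190 reads. Mutant replicates 2, 3 and 4 were the 3 lowest embryos and mutant replicates 5 and 6 the 2 highest, with all *Rreb1*+/+ embryos between them. The means were therefore close, 119.0 ± 154 in *Rreb1*-/- and 116.9 ± 59.6 in *Rreb1*+/+ embryos, while on the log scale the fold change was −1.48 with a 95% interval from −3.93 to 0.97 (limma, adjusted p = 0.533, exact permutation p = 0.325). The tools that model the mean of the reads put the difference at a log2 fold change of 0.03 (edgeR, adjusted p = 0.989, and DESeq2, adjusted p = 0.993).

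Within replicates 2 to 4 all 3 mutants were below all 3 *Rreb1*+/+ embryos for *Shh*, which held for 11.0% of the genes tested. The log2 fold change there was −2.84 (SE 0.73, 95% interval −4.51 to −1.17), which missed the threshold (limma, adjusted p = 0.0824, unadjusted p = 0.0043). In that set 2.17% of genes were called higher and 1.44% lower, and 0 of the 5 genes (2, *Foxj1* and *Shh*, had an unadjusted p under 0.05). Within replicates 5 and 6 both mutants were above both *Rreb1*+/+ embryos, at a log2 fold change of 0.56 (95% interval −0.14 to 1.26, limma, adjusted p = 0.525). Such a pattern, below in all of replicates 2 to 4 and above in both of replicates 5 and 6, was seen in 0.904% of the genes tested. Whether the difference between the sets is larger than chance was not tested, because the sets were recognized from these same libraries. The exact Poisson 95% intervals of the reads, which cover counting error only, ran from 2.20 to 13.1 and from 0.619 to 8.77 in mutant replicates 2 and 3. They ran from 22.7 to 46.3 in mutant replicate 4 and from 44.0 to 75.0 in *Rreb1*+/+ replicate 4, the nearest pair, and these last 2 intervals overlapped. Exons of *Shh* overlap a pair of genes on the other strand, *9530036O11Rik* over 446 bases and *Gm26894* over 361, which had at most 5.58 and 9.39 normalized counts in any embryo. Whether the authors' counting used strand is not given in the sources used here.

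*Chrd*, the BMP antagonist Chordin, had 562.7, 466.6, 762.4, 148.7 and 297.3 normalized counts in *Rreb1*-/- replicates 2 to 6, against 305.1, 553.2, 729.5, 165.2 and 240.2 in *Rreb1*+/+ replicates 2 to 6. Replicate 4 was the highest and replicate 5 the lowest embryo of each genotype. The means were 447.5 ± 237 and 398.6 ± 235, a log2 fold change of 0.17 (95% interval −0.89 to 1.23, limma, adjusted p = 0.891, exact permutation p = 0.786). *Chrd* was 2.68 times as high in replicates 2 to 4 as in replicates 5 and 6 in *Rreb1*-/- embryos and 2.61 times in *Rreb1*+/+ embryos. Within the sets the genotypes differed by log2 fold changes of 0.23 (replicates 2 to 4) and 0.08 (replicates 5 and 6). *Thpo*, on the other strand, shares 239 exon bases with *Chrd* and had 64.1 to 115 normalized counts in mutants and 115 to 170 in *Rreb1*+/+ embryos, so some reads of *Chrd* could belong to it if strand was not used.

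*Nog*, the BMP antagonist Noggin, had 124.0, 53.0, 49.9, 67.8 and 195.1 normalized counts in *Rreb1*-/- replicates 2 to 6. The *Rreb1*+/+ embryos had 90.2, 99.4, 103.1, 62.4 and 81.0. The mutants lay on both sides of the narrow *Rreb1*+/+ range, with replicates 2 and 6 above it and replicates 3 and 4 below it. The means were 97.96 ± 61.9 and 87.2 ± 16.3, and the log2 fold change was −0.02 (95% interval −0.80 to 0.76, limma, adjusted p = 0.984, exact permutation p = 0.968). Within replicates 2 to 4 it was −0.49 (adjusted p = 0.510) and within replicates 5 and 6 it was 0.69 (adjusted p = 0.630).

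**Figure D2:**
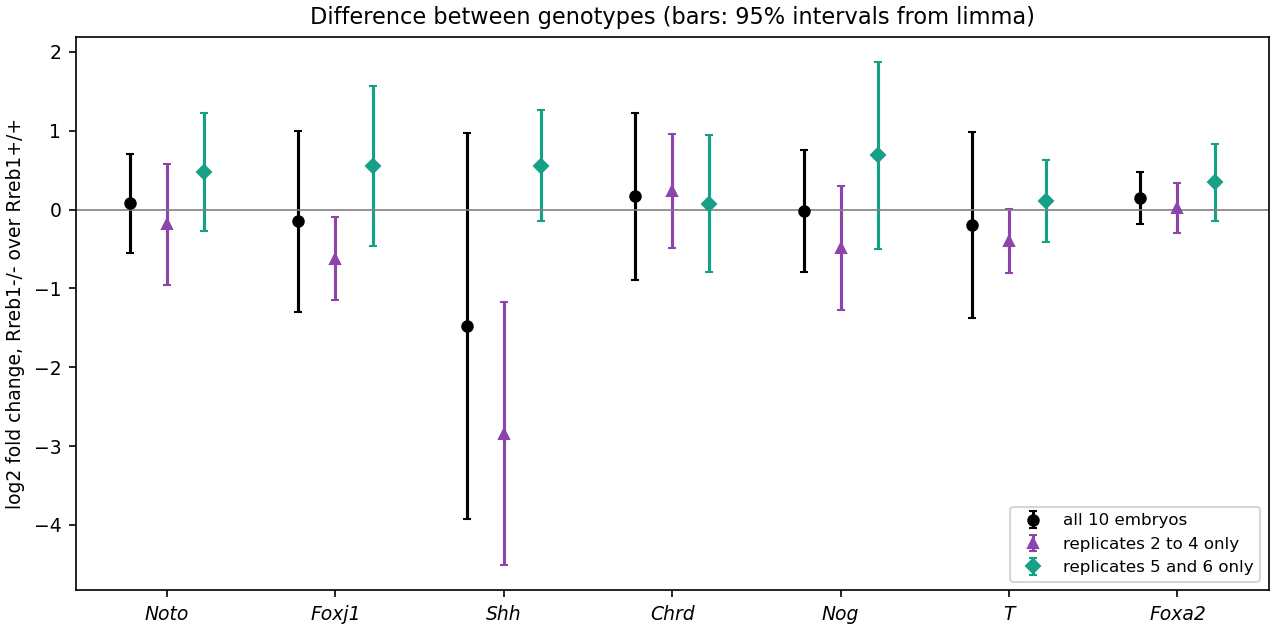
Log2 fold changes of Rreb1-/- over Rreb1+/+ embryos for the 5 genes and for *T* and *Foxa2*, with 95% intervals from limma, in all 10 embryos (black circles), in replicates 2 to 4 (purple triangles) and in replicates 5 and 6 (green diamonds). With all 10 embryos each interval includes 0, and the widest, that of *Shh*, runs from −3.93 to 0.97.

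Per kilobase of exon, which allows levels of different genes to be set side by side, the order was the same in both genotypes. *Foxj1* led with 162 ± 68.6 normalized counts per kilobase in mutants, against 207 ± 133 in *Rreb1*+/+ embryos (SD, n = 5 each). *Noto* followed with 89.2 ± 32.1 and 81.8 ± 22, then *Chrd* with 71.5 ± 37.9 and 63.7 ± 37.6, *Nog* with 57.8 ± 36.5 and 51.5 ± 9.62, and *Shh* with 41.8 ± 53.9 and 41.1 ± 20.9. In both genotypes the ranges of every pair of neighbours in this order overlapped.

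*T* (Brachyury) and *Foxa2*, which define axial mesoderm and are also made in the primitive streak and the endoderm, were high in every embryo. *T* had 4737, 6081, 6693, 1620 and 2619 normalized counts in *Rreb1*-/- replicates 2 to 6 and 6294, 7258, 9627, 1941 and 1881 in *Rreb1*+/+ replicates 2 to 6. Like *Chrd*, it was lowest in replicates 5 and 6 of each genotype, and the genotypes overlapped (log2 fold change −0.19, limma, adjusted p = 0.889). *Foxa2* averaged 643.4 ± 96.5 in *Rreb1*-/- and 583.4 ± 118 in *Rreb1*+/+ embryos, with a log2 fold change of 0.15 (adjusted p = 0.648). Of 12 tested genes of a list of further node and axial genes, 1 was called higher and 0 lower, with a median log2 fold change of −0.01 beside −0.02 over all genes tested. It was *Bicc1*, an RNA-binding protein that acts in left-right patterning at the node, with 1573 ± 222 normalized counts in mutants and 1154 ± 79.9 in *Rreb1*+/+ embryos (log2 fold change 0.44, limma, adjusted p = 0.0271). *Bicc1* was no longer called once the replicate number was blocked (adjusted p = 0.0536), nor in fits that left out *Rreb1*-/- replicate 2 or 5 or *Rreb1*+/+ replicate 2, 5 or 6 (0.0556 to 0.0736). With the block, *Calca* was called higher (adjusted p = 0.0311). *Lhx1*, a homeobox gene of the anterior streak and its derivatives that is named here because its values stood out, had 377.3, 1467 and 2029 normalized counts as lowest, median and highest of the mutants and 320.4, 424.5 and 612.0 in *Rreb1*+/+ embryos. It did not pass over all 10 embryos by limma (adjusted p = 0.158), by edgeR (0.0789) or with the replicate number blocked (0.0811). Within replicates 5 and 6 it did not pass either (log2 fold change 0.17, limma, adjusted p = 0.778). *Lhx1* did pass by DESeq2 (0.0245), with the replicate set as a covariate (0.0380) and without *Rreb1*-/- replicate 5 (0.0320). It also passed within replicates 2 to 4 (log2 fold change 1.92, limma, adjusted p = 0.0064), where all 3 mutants were above the *Rreb1*+/+ embryos. In that set 1 gene of the list was called higher, *Lhx1*, and 2 lower. *Foxd4*, a forkhead gene, had 31.8 to 48.8 normalized counts in mutant and 81.3 to 106.0 in *Rreb1*+/+ replicates 2 to 4 (log2 fold change −1.19, limma, adjusted p = 0.0360). *Vtn*, which encodes vitronectin, had 21.8 to 29.7 and 57.3 to 70.0 in the same order (−1.30, adjusted p = 0.0270). Within replicates 5 and 6 *Foxd4* had 159.8 and 169.0 in mutants and 122.0 and 127.2 in *Rreb1*+/+ embryos (log2 fold change 0.40, limma, adjusted p = 0.498). The log2 fold change of *Vtn* there was 0.11 (limma, adjusted p = 0.915). Over all 10 embryos neither passed (limma, adjusted p = 0.566 for *Foxd4* and 0.398 for *Vtn*).

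The other Hedgehog genes were read as ligands and their release, then receptors and transducers. Of 6 tested genes that make or release Hedgehog ligands 0 were called (limma; edgeR and DESeq2 also called 0, and unadjusted p was under 0.05 for 1, lower), and all 6 had log2 fold changes below 0, with a median of −0.21. *Ihh*, the Hedgehog ligand of the visceral endoderm, averaged 587.2 ± 181 in *Rreb1*-/- and 585.1 ± 107 in *Rreb1*+/+ embryos (log2 fold change −0.02, adjusted p = 0.965), and *Disp1*, which releases the ligands from the cell, 568.1 ± 135 and 630.6 ± 85.3 (−0.17, adjusted p = 0.631). Of 14 receptors and transducers 1 was called higher and 0 lower, with a median of −0.15. The higher one was *Gpr161*, a receptor of the cilium that holds the pathway off, with 733.6 ± 47.0 in *Rreb1*-/- and 514.3 ± 59.0 in *Rreb1*+/+ embryos (log2 fold change 0.52, limma, adjusted p = 0.00979). With the replicate block 3 were higher, *Gpr161*, the co-receptor *Gas1* (adjusted p = 0.0490) and the Hedgehog-binding inhibitor *Hhip* (0.0160). By edgeR 1 was higher and by DESeq2 2, and 0 were lower by either. Within replicates 2 to 4 *Gpr161* was called higher and *Ptch1* and the transcription factor *Gli2* (adjusted p = 0.0475) lower.

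*Ptch1*, *Gli1* and *Ntn1*, named after their values were seen because the first pair are direct targets of Hedgehog signaling and the last is a product of the floor plate, were set beside *Shh*. *Ptch1* stood at 3667 to 4089 normalized counts in *Rreb1*-/- replicates 2 to 4 and 5090 to 5895 in *Rreb1*+/+ replicates 2 to 4. In replicates 5 and 6 it stood at 6827 and 7548 in mutants and 6986 and 8230 in *Rreb1*+/+ embryos. Within replicates 2 to 4 *Ptch1* was called lower (log2 fold change −0.46, limma, adjusted p = 0.0348), and over all 10 embryos it was not (−0.31, adjusted p = 0.504). *Gli1* ranged from 318.9 to 447.9 in mutant and from 406.8 to 486.9 in *Rreb1*+/+ replicates 2 to 4, and these overlapped (log2 fold change −0.25, adjusted p = 0.473). In replicates 5 and 6 it had 847.0 and 992.5 in mutants and 916.1 and 966.5 in *Rreb1*+/+ embryos. *Ntn1* had 725.3 to 838.9 in mutant and 1175 to 1620 in *Rreb1*+/+ replicates 2 to 4 (log2 fold change −0.83, limma, adjusted p = 0.0206). Within replicates 5 and 6 its log2 fold change was −0.17 (limma, adjusted p = 0.627). Over all 10 embryos it did not pass by limma (−0.56, adjusted p = 0.102), by edgeR (0.130) or with the replicate number blocked (0.0566). It did pass by DESeq2 (0.0423), with the replicate set as a covariate (0.0304) and without *Rreb1*-/- replicate 5 (0.0281).

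The partners of *Chrd* and *Nog* in BMP signaling were read as ligands and receptors, other modulators and response genes. Of 17 ligands, receptors and Smads 0 were called (limma; edgeR and DESeq2 also called 0, and unadjusted p was under 0.05 for 2, both higher), with a median log2 fold change of 0.09. *Bmpr1a*, the most abundant type I receptor of the list, averaged 6899 ± 449 in *Rreb1*-/- and 6504 ± 435 in *Rreb1*+/+ embryos (adjusted p = 0.536), and *Smad4*, the shared Smad, 4339 ± 200 and 4491 ± 273 (adjusted p = 0.702). Of 14 other extracellular modulators 1 was higher and 0 lower, with a median of 0.14. It was *Twsg1*, a partner of Chordin in BMP binding, with 3459 ± 227 in *Rreb1*-/- and 2826 ± 86.9 in *Rreb1*+/+ embryos (log2 fold change 0.29, limma, adjusted p = 0.0155). The block made it 4, adding *Bmper* (adjusted p = 0.0109), *Fstl1* (0.0169) and *Crim1* (0.0445). By edgeR 2 were higher, *Bmper* (adjusted p = 0.0419) among them, and by DESeq2 3, with 0 lower by either. Within replicates 2 to 4 *Twsg1*, *Bmper* (log2 fold change 1.25, limma, adjusted p = 0.00576) and *Cer1* (0.91, adjusted p = 0.0149) were higher. The summed count of the 16 modulators in the table was 13740 to 17780 in *Rreb1*-/- and 11640 to 13540 in *Rreb1*+/+ embryos, and these did not overlap. Its largest part was *Fstl1*, with means of 5649 and 4342, whose genotypes overlapped. Among single genes tested 6.70% did not overlap, a share that is no reference for a sum over many genes. The sum of the 23 primary cilia genes did not overlap either (21390 to 23550 in mutants and 19970 to 21100 in *Rreb1*+/+ embryos). In every other list the sums of the genotypes overlapped. Of 12 genes that BMP signaling is known to induce 0 were called (limma, edgeR and DESeq2 alike, with unadjusted p under 0.05 for 2, both higher), at a median of 0.10. *Id2* averaged 9106 ± 1207 in *Rreb1*-/- and 7668 ± 999 in *Rreb1*+/+ embryos (adjusted p = 0.266) and *Id3* 2844 ± 915 and 3102 ± 752 (adjusted p = 0.772).

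**Figure D3:**
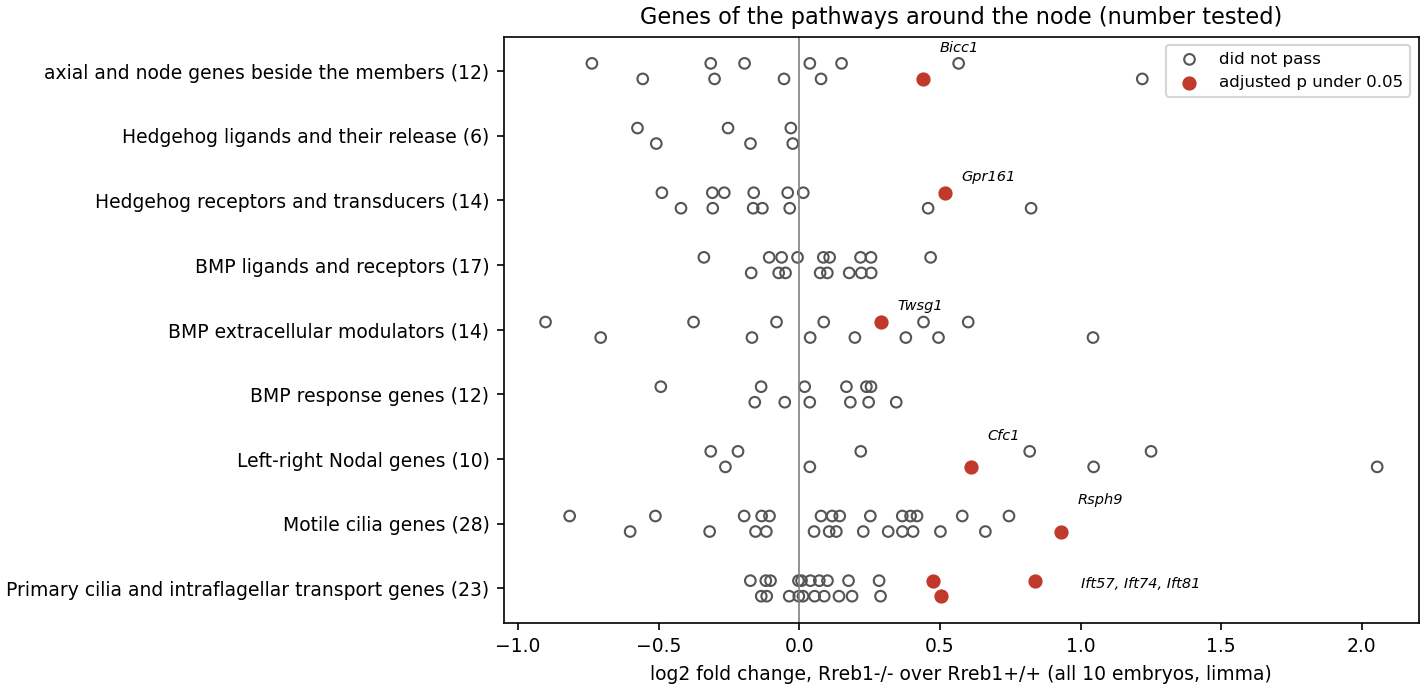
Log2 fold changes of Rreb1-/- over Rreb1+/+ embryos (limma, all 10 embryos) for the tested genes of 9 lists around the node, with the number tested in brackets. Red points passed an adjusted p of 0.05 and are named, open points did not, and the 8 named genes all lie above 0, from 0.29 for *Twsg1* to 0.93 for *Rsph9*. Over all genes tested, 3.11% were called higher and 1.15% lower.

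Downstream of the node, genes of the Nodal cascade and of cilia were examined, the second being the genes among which *Foxj1* has its known targets. Of 10 tested genes of the Nodal cascade and left-right patterning 1 was called higher and 0 lower, with a median of 0.41. It was *Cfc1* (Cryptic), a Nodal co-receptor needed for left-right asymmetry, with 573.8 ± 81.7 in *Rreb1*-/- and 374.3 ± 39.1 in *Rreb1*+/+ embryos (log2 fold change 0.61, limma, adjusted p = 0.0128). The co-receptor *Tdgf1* was called higher as well within replicates 2 to 4 (log2 fold change 3.38, adjusted p = 0.00561). Of 28 motile cilia genes 1 was higher and 0 lower, with a median of 0.14. This was *Rsph9*, of the radial spoke head, at 36.4 ± 5.96 in *Rreb1*-/- and 18.7 ± 3.32 in *Rreb1*+/+ embryos (0.93 on the log2 scale, limma, adjusted p = 0.0263). It was no longer called when the fit left out *Rreb1*-/- replicate 2, 4 or 6 or *Rreb1*+/+ replicate 2, 3 or 6 (0.0566 to 0.0673), and with the block *Pifo* was called too (0.0316). By DESeq2 3 motile cilia genes were higher, by edgeR 1, and within replicates 2 to 4 limma called 0 (unadjusted p was under 0.05 for 2 higher and 4 lower). Of 23 genes of intraflagellar transport and the primary cilium 3 were higher and 0 lower, with a median of 0.05. *Ift57* averaged 553.8 ± 75.8 in *Rreb1*-/- and 307.6 ± 17.2 in *Rreb1*+/+ embryos (log2 fold change 0.84, limma, adjusted p = 0.000973). *Ift81* (929.5 ± 75.4 and 655.0 ± 54.9, adjusted p = 0.00597) and *Ift74* (1688 ± 87.1 and 1213 ± 63.5, adjusted p = 0.00134) encode subunits of the same transport complex, IFT-B. Of the 8 called genes of these lists, *Ift57* alone was called in a fit with the Y-linked counts as covariate, in which 83 genes were higher and 24 lower in all.

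Markers of other tissues moved with the replicate sets, and their values stand here beside those of *Shh*. The summed count of 8 paraxial and cardiac mesoderm markers was 613.5 to 854.8 in *Rreb1*-/- replicates 2 to 4 and 857.7 to 1330 in *Rreb1*+/+ replicates 2 to 4. In replicates 5 and 6 it was 2686 and 2694 in mutants and 2667 and 2693 in *Rreb1*+/+ embryos. *Meox1*, a somite gene of that list, had 7.27 to 30.7 in mutant and 26.7 to 48.9 in *Rreb1*+/+ replicates 2 to 4, and 992.5 to 1064 in replicates 5 and 6 of both. The 6 primitive blood markers summed to 349.1 to 450.3 in mutant and 1059 to 1621 in *Rreb1*+/+ replicates 2 to 4, and to 2738 and 3024 in mutant and 8098 and 12400 in *Rreb1*+/+ replicates 5 and 6. The 12 primitive streak and nascent mesoderm markers ran the other way between sets, with 8401 to 10610 in mutant and 4760 to 6208 in *Rreb1*+/+ replicates 2 to 4, and 3045 to 4010 in mutant and 3091 to 3759 in *Rreb1*+/+ replicates 5 and 6. The 7 pluripotency markers gave 14930 to 19350 in mutant and 10410 to 16370 in *Rreb1*+/+ replicates 2 to 4, and 5938 to 6940 in replicates 5 and 6 of both. None of the 33 markers of these 4 lists was at 0 in every embryo, and 0 of them were called over all 10 embryos (limma; edgeR also called 0, DESeq2 called 1 higher and 1 lower, and unadjusted p was under 0.05 for 1 higher and 6 lower), though with the replicate block 2 were higher and 3 lower. The 3 *Rreb1*-/- embryos with the fewest *Shh* reads were those with the lowest sums of somite, heart and blood markers and the highest sums of streak markers. The study describes the mutants as small and late from this stage on. No embryos of matched stage were compared, and the part of these markers in the *Shh* result was not tested.

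**Figure D4:**
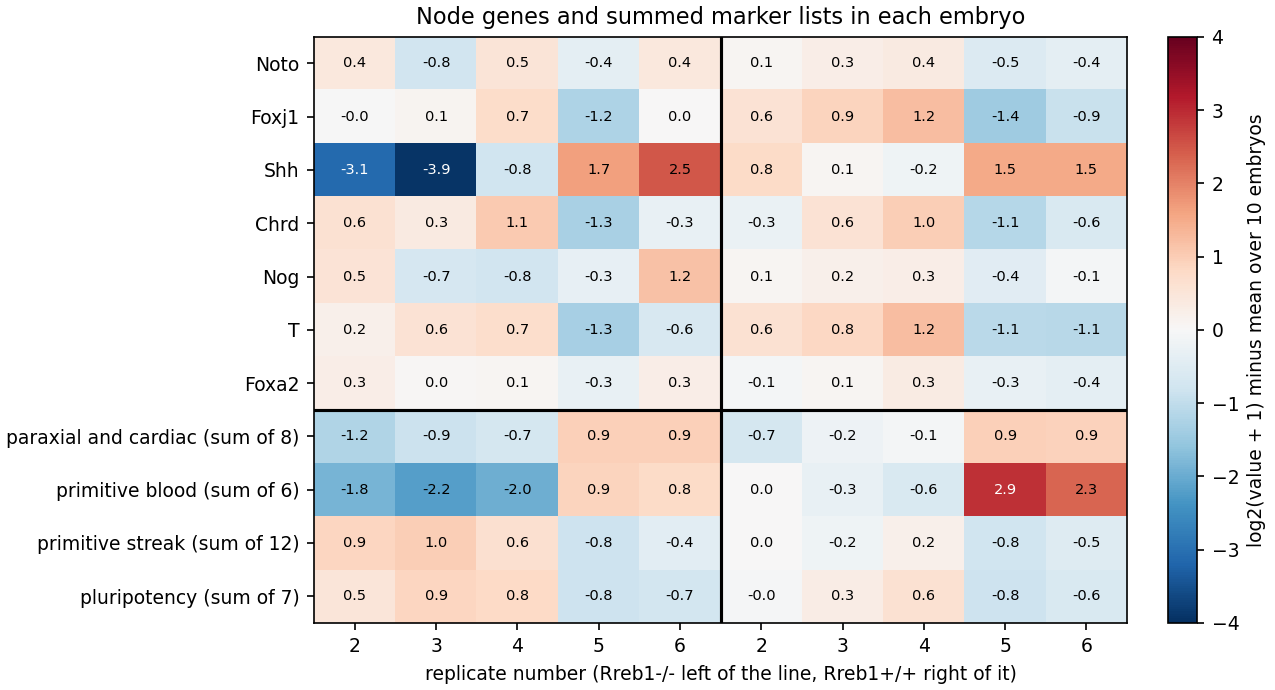
Log2(value + 1) of each gene or summed marker list minus its mean over the 10 embryos, in color and as printed numbers, with Rreb1-/- replicates 2 to 6 left of the black line and Rreb1+/+ replicates 2 to 6 right of it. *Shh* and the paraxial and cardiac sum are lowest in Rreb1-/- replicates 2 and 3 or 2 to 4 and high in replicates 5 and 6 of both genotypes, whereas *Foxj1* in Rreb1+/+ embryos, *T* and the streak and pluripotency sums are lower there.

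The 5 genes did not share 1 profile over the embryos. As a description over 10 embryos, which share their libraries and the split between replicate sets, Pearson's r of the log2 values was 0.88 between *Foxj1* and *Chrd*, 0.68 between *Noto* and *Foxj1*, and 0.63 between *Noto* and *Chrd*. *Shh* had r = −0.62 with *Chrd*, −0.36 with *Foxj1*, 0.29 with *Nog* and 0.04 with *Noto*. Of all genes tested, those most like *Noto* were *Armc3* (r = 0.982), *Cenph* (0.959) and *Cfap69* (0.948), and the same 3 led once genotype means were removed. *Foxj1* was most like *Cfap52* (0.946), *T* (0.943) and *Sycp3* (0.943), and after removal of genotype means *Ubxn10* (0.983), *Cfap52* (0.976) and *Sycp3* (0.970). *Shh* was most like *Wscd2* (0.978), *Tfg* (0.965) and *Fhod3* (0.956), and afterwards *Wscd2* (0.976), *Slc2a13* (0.965) and *4932442E05Rik* (0.964). *Chrd* was most like *2810025M15Rik* (0.969), *Chga* (0.938) and *Fuom* (0.936), and afterwards *2810025M15Rik* (0.970), *Cadps2* (0.965) and *Ggact* (0.961). *Nog* was most like *Klf4* (0.938), *Fxyd3* (0.928) and *Pls1* (0.904), and afterwards *Ppp1r21* (0.965), *Kdelr3* (0.963) and *Klf4* (0.946).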

How the data were processed

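Single E7.5 embryos were grouped by the genotype in their labels, 5 *Rreb1*-/- and 5 *Rreb1*+/+. The authors aligned reads with STAR, counted them with HTSeq and scaled them with DESeq, and the deposited signal is this read count per gene over a size factor. The build, the gene models and the strand setting were not given in sources used here. Within an embryo all values were multiples of a single step (100% whole, tolerance 0.1 read), and the reads recovered this way were used for depth, edgeR 4.0.16 and DESeq2 1.42.0. The 15603 genes whose mean reached 15 in one genotype or the other were compared with limma 3.58.1 in R 4.3.3 on log2(normalized count + 1), with the variance following the mean and Benjamini-Hochberg adjustment. Exact two-sided permutation tests covered all arrangements of the embryos (smallest p = 0.00794). Same-numbered embryos deviated together (correlation 0.253 to 0.459 over 5 pairs, from titles), and the number was used as a block in an alternative fit, although just 3 of 10 embryos were most like the embryo sharing their number. Genes, lists and alternatives were chosen with earlier results of these data known. Named genes were the 5, *T*, *Foxa2*, *Rreb1*, up to 4 called genes per list by size of change (otherwise the 2 most abundant), and the 3 genes with the highest r to each. Results of lists not described in the text are in the closing section. A result of the blocked fit for another listed gene is not reported here. Labels do not say whether the embryos shared litters. The fits were tested on simulated data.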

Additional observations from a re-analysis of the deposited data

Results flagged for a closer look

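*Shh* moved in opposite directions in the replicate sets. Its log2 fold change was −2.84 in replicates 2 to 4, where all 3 *Rreb1*-/- embryos were below all 3 *Rreb1*+/+ embryos, and 0.56 in replicates 5 and 6, where both mutants were above both *Rreb1*+/+ embryos. The difference was not tested.

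*Ihh* stood at 896.0 normalized counts in *Rreb1*-/- replicate 6, apart from the other mutants at 421.6 to 553.1. By chance, the criterion used for such a gap singles out about 1 in 20 groups.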

How the results depend on the processing

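None of the 5 genes was called under any alternative. The genes called higher, 486 with all 10 embryos, numbered 785 by DESeq2, 753 with the replicate set as a covariate, 83 with the Y-linked covariate and 85 in replicates 5 and 6 alone, and those called lower, 179, numbered 428, 381, 24 and 21 in the same order. With the replicate number of the titles as a block, 716 were higher and 356 lower, and *Shh* had an adjusted p = 0.262 (limma). This block also takes up the split between the replicate sets. Without 1 embryo the counts were 342 to 435 higher and 99 to 207 lower, and the lower genes numbered 101, 112, 99 and 101 without *Rreb1*+/+ replicate 3, 4, 5 or 6 and 111 without *Rreb1*-/- replicate 4.

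The sign of the log2 fold change turned for *Noto* in replicates 2 to 4 (−0.19), and in replicates 5 and 6 for *Foxj1* (0.56), *Shh* (0.56), *Nog* (0.69), *T* (0.11), *Ihh* (0.39), *Id3* (0.28) and *Pou5f1* (−0.12). It turned by edgeR for *Shh* (0.029), *Nog* (0.17) and *Ihh* (0.0077), by DESeq2 for the same 3 (0.027, 0.17 and 0.0055), and with the Y-linked covariate for *Nog* (0.54) and *T* (0.015). The causes were not tested. Without 1 embryo the values ranged from −0.045 to 0.28 for *Noto*, −0.52 to 0.14 for *Foxj1*, −2.29 to −0.68 for *Shh*, −0.094 to 0.52 for *Chrd*, −0.32 to 0.17 for *Nog*, −0.50 to 0.12 for *T*, −0.19 to 0.084 for *Ihh*, −0.38 to 0.026 for *Gli1*, −0.28 to 0.016 for *Id3*, −1.62 to 0.12 for *Meox1* and −0.20 to 0.28 for *Pou5f1*. The lowest value of *Shh* came without *Rreb1*-/- replicate 6 and the highest without *Rreb1*-/- replicate 3.

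Limits are the 5 embryos per genotype, no record of stage or litter, and Y-linked reads in 4 of the 5 mutants and no *Rreb1*+/+ embryo, so that sex and genotype are separated by 1 embryo only. *Shh* in *Rreb1*-/- replicates 2 and 3 rests on 6 and 3 reads.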

Other observations

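Of the tissue lists not described above, those of the endoderm and of the extraembryonic tissues each held at most 1 called gene. Of 10 visceral endoderm markers 1 was lower and 0 higher (limma), with a median log2 fold change of −0.21, and it was *Afp*, the fetal serum protein of the yolk sac, with 5248 ± 2285 normalized counts in mutants, against 12200 ± 1872 in *Rreb1*+/+ embryos (adjusted p = 0.0157). Of 7 extraembryonic ectoderm markers 1 was lower, the homeobox gene *Esx1*, with 121.6 ± 42.4 and 308.4 ± 79.2 (adjusted p = 0.0156), and 0 were higher. Of 6 parietal endoderm markers 1 was higher, the plasminogen activator *Plat*, with 1138 ± 353 and 410.9 ± 112 (adjusted p = 0.00490), and 0 were lower. Of 7 definitive endoderm markers 0 were called (limma; edgeR also called 0, DESeq2 called 1 higher, and unadjusted p was under 0.05 for 1, higher).

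Neural genes gave 1 higher of 9 neurectoderm markers and 0 lower. It was *En1*, a homeobox gene of the midbrain-hindbrain boundary, with 116.7 ± 26.6 in *Rreb1*-/- and 29.0 ± 15.4 in *Rreb1*+/+ embryos (log2 fold change 2.11, limma, adjusted p = 0.00666). Of the 9 neurectoderm markers, 1 was called higher and 2 lower within replicates 2 to 4 (limma), with a median log2 fold change of −0.41. Of 4 tested floor plate and ventral neural markers, *Shh* and *Foxa2* among them, 0 were called (limma; edgeR also called 0, DESeq2 called 1 lower, and unadjusted p was under 0.05 for 1, lower). Markers of maternal tissue and of ciliated reproductive epithelium, which would also carry *Foxj1*, summed to 1008 to 1590 in *Rreb1*-/- and 1228 to 1502 in *Rreb1*+/+ embryos, most of it *Wfdc2*. Of 6 tested 1 was lower, *Muc1*, with 44.6 ± 15.7 and 81.9 ± 8.30 (adjusted p = 0.0326), and 0 were higher.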
